A study of Mus musculus with 6 samples.

Results

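The 10 genes described here encode proteins that build, shape or anchor the actin core of stereocilia: Espn, Fscn2, Pls1, Xirp2, Eps8, Eps8l2, Triobp, Clic5, Grxcr1 and Grxcr2. They were chosen by symbol for these roles, and each was found once among the 52636 genes of the deposited table. RNA-seq compared the vestibular epithelium of 3 Control and 3 IDPN mice, to determine how gene expression in this tissue differs under subchronic ototoxic exposure. Both groups were male 129S1/SvImJ mice aged 2 to 4 months. IDPN animals drank 30 mM 3,3'-iminodipropionitrile, a nitrile toxic to hair cells (HCs), for 8 weeks, while Control animals drank plain water. Each library held the pooled epithelium of 1 animal, 2 utricles and 6 cristae, so it contained supporting cells, nerve endings and connective tissue as well as HCs. In the labels, all Control titles begin with 1 code and the IDPN titles with other codes, so an effect of whatever the code marks and an effect of IDPN cannot be told apart.

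Stereocilia are the rods of the HC bundle that carry the mechanotransduction machinery, and each is filled by parallel actin filaments packed by cross-linking proteins. Near the base the rod tapers, and its central filaments continue as a dense rootlet into the cuticular plate, the actin mesh under the apical membrane. Length, width and packing of the core are set by different proteins, and mutation of many of their genes causes deafness, with balance defects in several cases.

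Total estimated counts were 40474847 to 43566332 per library, and every member had at least 89 estimated counts in every library. All values below are normalized counts, meaning estimated counts divided by the DESeq2 size factor of the library. A gene was called when the DESeq2 Padj was under 0.05 and the fold change was above 1.5. Of the 10 genes, 1 was called lower after IDPN (Xirp2) and 1 was called higher (Grxcr2). Among all 17650 genes tested, 5.75% were called, with 3.42% lower and 2.32% higher. The same 2 members were called, in the same directions, by edgeR, where the background was 3.21% (2.19% lower, 1.02% higher), and by DESeq2 with scaling by total counts, where it was 4.92% (1.28% lower, 3.64% higher). In 6 of the 10 genes the groups were fully separated, 5 with IDPN lower (Xirp2, Fscn2, Pls1, Clic5 and Triobp) and 1 with IDPN higher (Grxcr2), whereas 22.5% of all genes tested were separated in this way, 11.4% lower and 11.1% higher. With total-count scaling, only Xirp2 and Pls1 of the 5 remained separated on the lower side, where the background was 3.99%, and Grxcr2 remained so on the higher side, where it was 19.3%. The median log2 fold change of the 10 genes was −0.32, with 8 below 0 and 2 above, compared with 0.02 for all genes tested. With total-count scaling this median was −0.07, with 5 genes on either side of 0, compared with 0.27 for all genes tested.

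**Figure D1:**
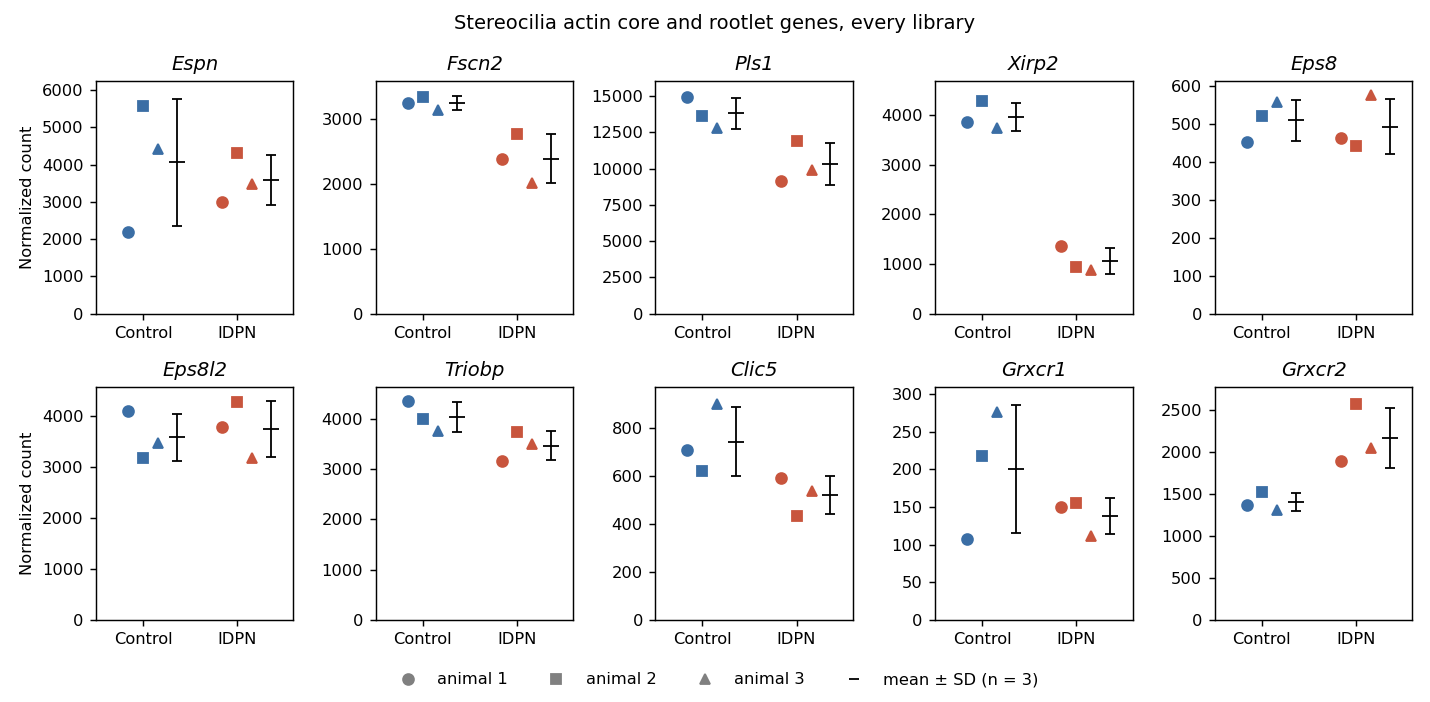
Normalized count of each of the 10 genes (vertical axis from 0, 1 panel per gene) in the 3 Control (blue) and 3 IDPN (red) libraries, with group mean and SD (n = 3); symbol shapes only name the animals of a group. Xirp2 lay between 873 and 1370 in IDPN against 3741 to 4288 in Control, Grxcr2 was higher in every IDPN library than in any Control library, and Espn in Control spread from 2200 to 5559.

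Xirp2 encodes an actin-binding protein with Xin repeats that is found along stereocilia and is needed to maintain the bundle, and it is also expressed in striated muscle. It lies on chromosome 2 of GRCm38, from 67446002 to 67526614 on the plus strand, with 9 merged exons in GENCODE. Its sequence just upstream of the annotated start is shown because Xirp2 had the largest change of the set. The 250 bases before the start (RefSeq, build GRCm38.p6, chr2:67445752-67446001, plus strand) hold 1 match to the consensus site of the MEF2 factors, transcription factors best known from muscle. The match is in capitals and begins 74 bases before the start.

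Xirp2 upstream: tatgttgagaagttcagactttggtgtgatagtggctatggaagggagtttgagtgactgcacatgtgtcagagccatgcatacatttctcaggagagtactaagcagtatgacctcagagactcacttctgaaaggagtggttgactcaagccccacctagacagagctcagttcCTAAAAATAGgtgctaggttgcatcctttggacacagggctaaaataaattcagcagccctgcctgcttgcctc

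This consensus, searched on both strands, occurred in 959 of 32851 upstream windows of the same length (2.92%). RefSeq windows were found for 8 of the 10 genes, 11 windows in all, and the only other MEF2 match was in the Clic5 window, 239 bases before the start. The TATA box (TATAAA) and the E-box (CANNTG) were also searched. They occurred in 12.4% and 66.2% of all windows, and the Xirp2 window held 0 and 2 matches. A match describes letters in this window and does not show that a factor binds there.

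Xirp2 was at 3853, 4288 and 3741 normalized counts in Control 1 to 3 and at 1370, 947 and 873 in IDPN 1 to 3. All IDPN libraries were thus far below all Control libraries, and the gap between the groups exceeded the spread within either. Its mean fell from 3961 ± 289 to 1063 ± 269 (SD, n = 3), a 3.72-fold lower level with a log2 fold change of −1.90 (SE 0.195) and a DESeq2 Padj of 1.71e-19. By p-value it was in place 20 of the 17650 genes. edgeR also called it (log2 fold change −1.89, adjusted p = 0.00109), as did DESeq2 against a fold change of 1.5 (Padj = 1.08e-08). Xirp2 is among the genes that the study selected partly on these libraries, so its direction here is not independent evidence. An annotated antisense gene, Gm13601, overlaps its exons by 168 bases and had 0 counts in all libraries.

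The remaining cross-linkers of the core had lower IDPN means, but none was called. Fscn2 encodes fascin-2, a cross-linker of the core in mature HCs. Its normalized counts were 3247, 3344 and 3137 in Control and 2382, 2773 and 2015 in IDPN. The Control libraries were tight and all lay above the IDPN libraries. The log2 fold change was −0.44 (SE 0.167, 95% interval −0.77 to −0.11), with a DESeq2 Padj of 0.0980.

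Pls1 encodes plastin-1 (fimbrin), the main cross-linker of the plastin family in stereocilia, which affects their width. Pls1 was at 14960, 13646 and 12803 in Control and at 9162, 11925 and 9884 in IDPN. Again the groups did not overlap, although IDPN 2 was close to Control 3. DESeq2 gave a log2 fold change of −0.42 (SE 0.160, 95% interval −0.73 to −0.10) and a Padj of 0.104.

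Espn encodes espin, a cross-linker required for stereocilia to lengthen and stay stable. Espn was at 2200, 5559 and 4411 in Control and at 2983, 4313 and 3476 in IDPN. Control 1 was the lowest of all 6 libraries and Control 2 the highest, so the groups overlapped over the whole IDPN range. The log2 fold change was −0.18 (SE 0.269, 95% interval −0.70 to 0.35), with a DESeq2 Padj of 0.830, and a difference of either sign lies within this interval. It was −0.48 without Control 1 and 0.11 without Control 2 (DESeq2 Padj 0.261 and 0.944), so its sign rested on the choice of Control libraries.

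The genes of the tip proteins, Eps8 and Eps8l2, were not called and had estimates near 0. Eps8 encodes an actin regulatory protein that accumulates at the tips of the tallest row and promotes its elongation. It was at 451, 521 and 558 in Control and at 462, 441 and 576 in IDPN, and the ranges overlapped almost fully. Its log2 fold change was −0.05 (SE 0.199, 95% interval −0.44 to 0.34), with a DESeq2 Padj of 0.945.

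Eps8l2, an Eps8 paralog whose protein is found at the tips of the shorter rows, was at 4097, 3187 and 3464 in Control and at 3784, 4272 and 3181 in IDPN. Both the highest and the lowest value came from IDPN libraries. The log2 fold change was 0.06 (SE 0.175, 95% interval −0.28 to 0.41), with a DESeq2 Padj of 0.916. For both genes the 95% intervals lie within 1.5-fold (0.58 on the log2 scale) in either direction, under the median-of-ratios scaling. The exons of Eps8l2 overlap B230206H07Rik on the opposite strand by 1729 bases, and because the library kit does not mark strand, reads from this stretch cannot be assigned by strand. B230206H07Rik had at most 28.5 normalized counts in any library.

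Triobp encodes the protein that bundles actin into the rootlet, and several other isoforms come from the same gene, which gene-level counts cannot separate. Triobp was at 4347, 3996 and 3760 in Control and at 3154, 3740 and 3505 in IDPN. The groups were separated by the narrow gap between Control 3 and IDPN 2. An antisense gene, Gm10865, overlaps its exons by 93 bases and was not matched in the table. For Triobp the log2 fold change was −0.22 (SE 0.152, 95% interval −0.52 to 0.08), with a DESeq2 Padj of 0.511.

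Clic5 encodes a protein of the stereocilia base that works with radixin in linking the core to the membrane. It was at 707, 619 and 899 in Control and at 590, 434 and 537 in IDPN. All IDPN libraries were below all Control libraries, with IDPN 1 close to Control 2. The log2 fold change was −0.51 (SE 0.211, 95% interval −0.92 to −0.10), with a DESeq2 Padj of 0.145.

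The paired glutaredoxin-like genes Grxcr1 and Grxcr2, both needed for normal bundles and both linked to deafness, had estimates of opposite sign. Only Grxcr2 was called, and a difference of either sign lies within the interval of Grxcr1. Grxcr1 was the least counted member, at 108, 217 and 276 in Control and at 150, 155 and 111 in IDPN. Control 1 was again the lowest library, and the IDPN libraries lay within the Control range. DESeq2 gave a log2 fold change of −0.54 (SE 0.336, 95% interval −1.19 to 0.12) and a Padj of 0.443, and without Control 1 it was −0.84 (Padj = 0.0974).

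Grxcr2 was at 1362, 1521 and 1312 in Control and at 1888, 2572 and 2039 in IDPN. All IDPN libraries were above all Control libraries, and IDPN 2 was the highest. The mean rose from 1399 ± 109 to 2166 ± 360 (SD, n = 3), which is 1.55-fold, with a log2 fold change of 0.63 (SE 0.176, 95% interval 0.29 to 0.98) and a DESeq2 Padj of 0.00924. edgeR called it as well (0.64, adjusted p = 0.0459). The estimate is close to the 1.5-fold threshold, and the call was lost without Control 1 (0.61, DESeq2 Padj = 0.0644), without IDPN 2 (0.49, Padj = 0.0767) and against a fold change of 1.5 (Padj = 1.0). Grxcr2 lies on chromosome 18, from 41985323 to 41999049 on the minus strand, and has 3 exons in 1 annotated transcript.

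**Figure D2:**
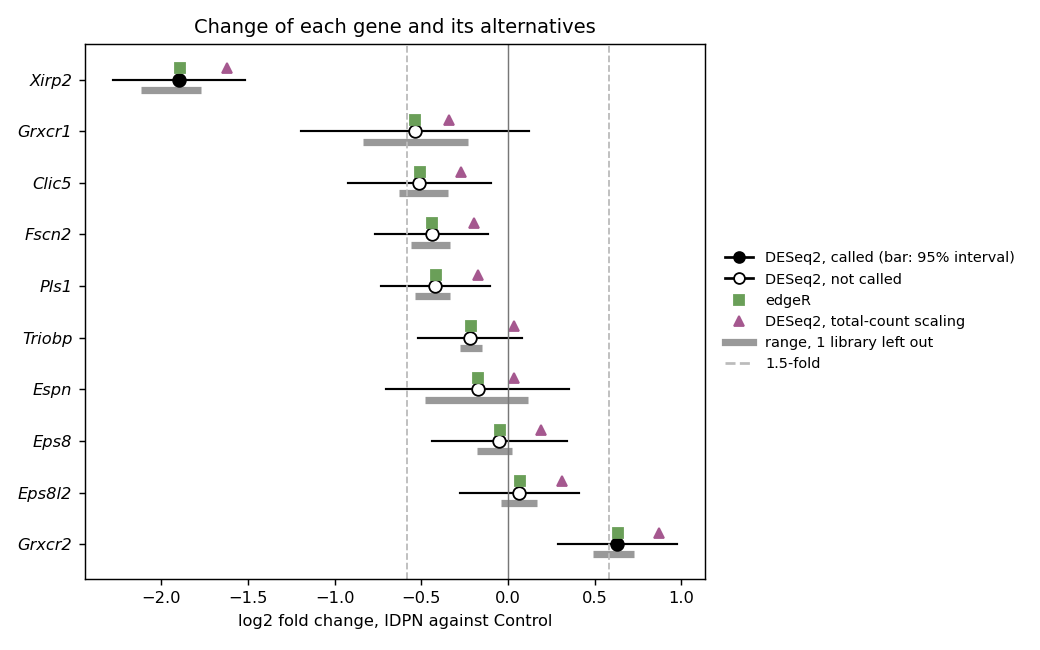
Log2 fold change of each gene, IDPN against Control (horizontal axis), with its DESeq2 95% interval (black bar), the edgeR estimate (square), the DESeq2 estimate with total-count scaling (triangle), the range when 1 library is left out (grey bar) and 1.5-fold marked by dashed lines. Xirp2 stayed between −2.12 and −1.77 when 1 library was left out, whereas the corresponding range of Espn ran from −0.48 to 0.11.

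Because the total of a library can move all its genes together, each gene was also expressed as a log2 ratio to the geometric mean of the other 9 genes in the same library, which needs no size factor. On this scale Xirp2 was at 1.22, 1.16 and 0.93 in Control and at −0.20, −0.91 and −0.84 in IDPN. Grxcr2 was at −0.44, −0.50 and −0.74 in Control and at 0.31, 0.70 and 0.52 in IDPN. For each of the 2 genes the groups were apart by more than the spread within either, in opposite directions. The differences of means were −1.76 for Xirp2 and 1.07 for Grxcr2. The two-sided exact permutation test gave p = 0.10 for both, which is the minimum for groups of 3, and 0.50 after adjustment over the 10 genes. The reference for Grxcr2 includes Xirp2 and other members with lower estimates, so its difference of 1.07 exceeds its DESeq2 log2 fold change of 0.63. The other 8 genes overlapped between groups on this scale. Their differences ran from −0.18 for Clic5 to 0.45 for Eps8l2.

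Several HC markers were also lower in IDPN. Of 18 HC markers, 7 were called lower (Pou4f3, Gfi1, Otof, Calb2, Slc17a8, Smpx and Acbd7), where the background was 3.42%. In 13 of the 18, all IDPN libraries were below all Control libraries, where the background was 11.4%. With total-count scaling 4 were called lower, and Otof, Calb2 and Acbd7 were not (DESeq2 Padj 0.196, 0.102 and 0.0506). The median log2 fold change of the 18 markers was −0.58, compared with 0.02 for all genes tested. With total-count scaling it was −0.35, compared with 0.27. Their summed normalized count was 51539 to 57230 in Control and 33152 to 36629 in IDPN, with no marker at 0 in any library. The HC myosins Myo7a and Myo6 were not called, with log2 fold changes of 0.01 and −0.21 (0.24 and 0.05 with total-count scaling). Of the 18 markers, 16 were below 0 and 2 above, namely Myo7a and Strip2. Strip2 had a log2 fold change of 1.22 (DESeq2 Padj = 0.199), with overlapping groups. The summed normalized count of the 10 stereocilia genes was 34361 to 36897 in Control and 25925 to 31572 in IDPN. In bulk tissue, fewer HCs and less RNA per HC cannot be told apart.

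Set against the mean of the 18 HC markers in the same library, Xirp2 remained lower in all IDPN libraries, by a mean log2 difference of −1.37. Grxcr2, Eps8l2 and Eps8 were higher in all IDPN libraries than in all Control libraries, by 1.17, 0.61 and 0.50. The exact permutation p was 0.10 for each of these 4 genes and the adjusted p was 0.25. By DESeq2, Grxcr2, Eps8l2 and Eps8 had log2 fold changes of 0.63, 0.06 and −0.05, beside an HC marker median of −0.58. Their ratios therefore include the lower level of the reference in IDPN. The share of all genes separated on this scale is not given here. Relative to HC markers, the differences of Fscn2 (0.10), Pls1 (0.13), Grxcr1 (0.11) and Clic5 (0.05) were small and the groups overlapped. Espn (0.46) and Triobp (0.33) also overlapped. This reference was chosen after seeing the data.

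**Figure D3:**
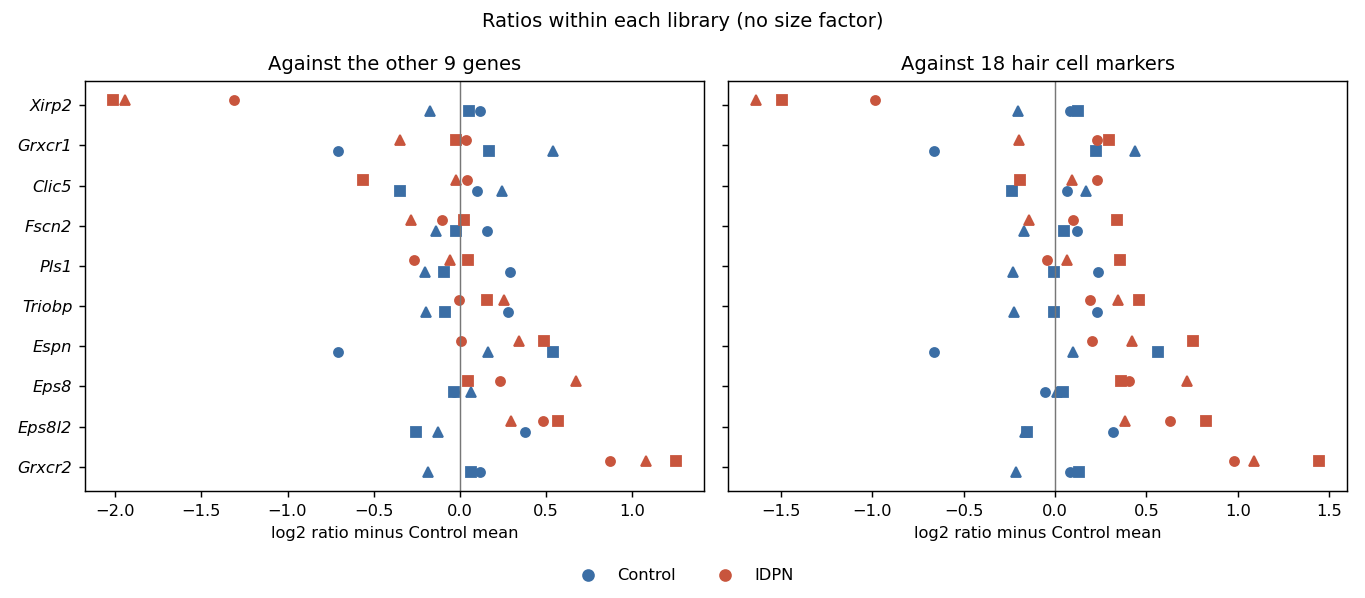
Log2 ratio of each gene to the other 9 genes (left) and to 18 HC markers (right) in each library, minus the Control mean of that ratio; Control is blue, IDPN red, and symbol shapes only name the animals of a group. In both panels the IDPN points of Xirp2 lie to the left of all Control points and those of Grxcr2 to the right.

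Markers of other cell types were examined beside these values. Of 6 supporting cell markers, 1 was called lower (Gjb6, log2 fold change −0.94, DESeq2 only), where the background was 3.42%. Their sum was 308541 to 440265 in Control and 217944 to 260743 in IDPN. Of the 6, 5 were below 0, and Lfng was at 0.66 (DESeq2 Padj = 0.369) with overlapping groups. Lfng averaged 212 in Control, so it adds little to the sum. The sums of 5 neuronal markers were 4909 to 5108 in Control and 3096 to 3390 in IDPN, and Nefh was at 0 in 1 library. Of the 5, 3 were called lower by DESeq2 (Nefl, Nefm and Snap25), where the background was 3.42%. Of these 3, edgeR called 2, without Nefm, and 0 were called with total-count scaling (DESeq2 Padj 0.377 for Nefl, 0.295 for Nefm and 0.124 for Snap25). Another neuronal marker, Prph, went the other way, with a log2 fold change of 1.51 (DESeq2 Padj = 0.148). It was not called, but all its IDPN libraries were above all Control libraries. Of 11 macrophage markers 0 were called by edgeR or by DESeq2 with its own size factors, with 5 higher and 0 lower at an unadjusted DESeq2 p under 0.05 and 5 and 0 with edgeR, and a median log2 fold change of 0.55. With total-count scaling 1 of them was called higher (C1qc, log2 fold change 1.07, DESeq2 Padj = 0.00745), where the background was 3.64%. The median was then 0.80 with all 11 above 0, where that of all genes tested was 0.27. The sums of these macrophage markers were 2397 to 3264 in Control and 2937 to 4232 in IDPN. The part of these cell types in the results for the stereocilia genes was not tested.

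Markers of skeletal muscle, which also expresses Xirp2, were low in all libraries. The 10 muscle markers summed to 83.1 to 103 normalized counts in Control and 65.4 to 75.6 in IDPN, and 6 of the 10 were at 0 in at least 1 library. One of them, Tnnt3, was called lower by DESeq2 and not by edgeR or with total-count scaling, at 21.8, 18.5 and 24.0 in Control and 4.97, 0 and 0 in IDPN. Xirp1, the Xirp2 paralog of striated muscle, had means of 1.99 in Control and 1.00 in IDPN.

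Levels of different genes were compared per kilobase of merged exon length. In Control, Pls1 had the highest level of the set, 3548 ± 280 normalized counts per kilobase (SD, n = 3), and made up 44.8% of the summed level of the 10 genes. Fscn2 was next at 1537 ± 49.0. Thus both cross-linkers were above every other member in every Control library, and they kept places 1 and 2 in IDPN, at 2654 ± 368 and 1133 ± 180, where Fscn2 overlapped with Grxcr2.

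The next genes in Control were Grxcr2 (700.0 ± 54.6), Eps8l2 (666 ± 86.7), Espn (490 ± 206), Xirp2 (331 ± 24.1) and Triobp (328 ± 24.0). Each of these overlapped with its neighbour in the order, so their order was not resolved, although Espn overlapped with Xirp2 through Control 1 alone. Grxcr1 (187 ± 79.5) and Clic5 (84.4 ± 16.3) followed and overlapped with each other at 1 library. Eps8 had the lowest level, 41.3 ± 4.38, below every other member in every Control library.

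In IDPN the level per kilobase of Xirp2 was 88.8 ± 22.4, and its share of the summed level was 1.34%, compared with 4.18% in Control. Xirp2 moved from place 6 to place 8. The level of Grxcr2 in IDPN was 1084 ± 180, with a share of 16.4% compared with 8.85% in Control. With the longest transcript in place of merged exons, Pls1 and Fscn2 kept the first places, but the means of Eps8l2 and Espn were above that of Grxcr2 in Control. Espn overlapped with Grxcr2 through Control 1 (476 compared with 682). The Eps8 level was 112 in place of 41.3. Eps8 then overlapped with Clic5 and Grxcr1 in Control, and in IDPN it was in place 8. Reverse transcription began at the poly(A) tail, and how this affects genes of different length was not tested.

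**Figure D4:**
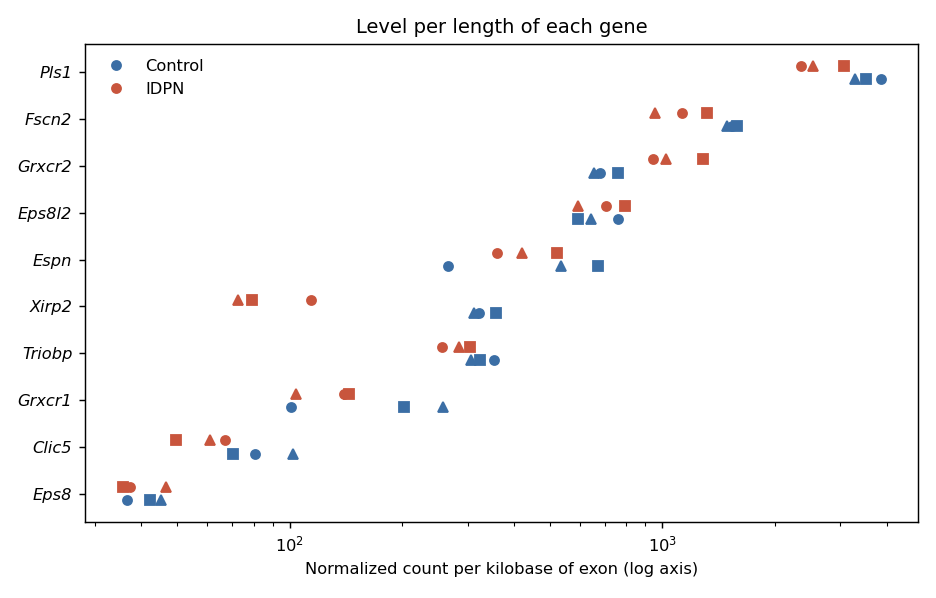
Normalized count per kilobase of merged exon (log axis) for each gene in each library, ordered by the Control mean; Control is blue, IDPN red, and symbol shapes only name the animals of a group. Pls1 and Fscn2 are highest in both groups and Eps8 is lowest, while the IDPN points of Xirp2 lie at 72.8 to 114 compared with 312 to 358 in Control.

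The genes with patterns most like those of the 2 called members were searched among 11135 genes whose normalized counts averaged 100 or more, by the root mean square difference of log2 profiles over the 6 libraries, each centred on its Control mean. For Xirp2 the nearest were Bdnf (0.0809), which encodes a neurotrophin, Wwox (0.144), a WW domain oxidoreductase, and Adam11 (0.147), a catalytically inactive ADAM protein. Their log2 fold changes were −1.89, −2.04 and −1.83, all called. Bdnf and Adam11, like Xirp2, are among the genes that the study selected partly on these libraries. For Grxcr2 the nearest were Thrsp (0.0626), Pwwp2b (0.0657) and Lzts2 (0.0673), with log2 fold changes of 0.65, 0.58 and 0.54. Of these 3, only Thrsp was called (DESeq2 Padj = 0.00951). For both members, fold changes near their own follow from the way the nearest genes were picked.

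A list of 56 other genes of stereocilia actin and its neighbourhood was examined to place the 10 genes. It covered paralogs of the members, actins and monomer-binding proteins, capping and severing proteins, nucleators and small GTPases, tip and polarity proteins of the first row, proteins of the taper and membrane link, and proteins of the cuticular plate. Of the 53 tested, 2 were called lower and 0 higher by DESeq2, where the background was 3.42% and 2.32% of all genes tested. By edgeR 0 were called in either direction, where the background was 2.19% and 1.02%. At an unadjusted p under 0.05, DESeq2 gave 6 lower and 3 higher genes and edgeR 6 lower and 2 higher. The share of all genes at that p is not given here. The median log2 fold change was −0.01, close to that of all genes tested, with 27 genes below 0 and 26 above. Groups were fully separated for 10 of these genes, 5 lower and 5 higher, where the background was 22.5% of all genes tested (11.4% lower, 11.1% higher).

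Gsn, which encodes the actin-severing protein gelsolin, was at 123336, 118056 and 78713 in Control and at 47650, 80899 and 48493 in IDPN. The groups overlapped, since IDPN 2 was above Control 3. Its log2 fold change was −0.85 (SE 0.232) with a DESeq2 Padj of 0.00683, and with edgeR the adjusted p was 0.150. Diaph2, a formin that nucleates and elongates actin filaments, was at 132, 108 and 148 in Control and at 70.3, 46.2 and 55.1 in IDPN. These groups did not overlap. Its log2 fold change was −1.18 (SE 0.327) with a DESeq2 Padj of 0.00899, and with edgeR the adjusted p was 0.0614. Both calls were also lost with total-count scaling (DESeq2 Padj 0.0722 and 0.168).

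By group, 0 of 11 paralogs, 0 of 7 actin and monomer-binding genes, 1 of 10 capping and severing genes, 1 of 7 nucleation and GTPase genes, 0 of 5 tip and polarity genes, 0 of 8 taper genes and 0 of 8 cuticular plate genes were called by DESeq2. Among all genes tested the share called was 5.75%. The actin genes themselves were dominated by 1 library, IDPN 2, where Actg1 reached 719402 and Actb 364428. Actg1 lay between 127878 and 261782 in the other 5 libraries. Pjvk (pejvakin), named after its values were seen, had a DESeq2 Padj of 0.0448 with a log2 fold change of −0.50, below the fold threshold.

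Of the 11 paralogs, 8 had a mean of at least 10 normalized counts, and their log2 fold changes ran on both sides of 0. Espnl, the espin-like gene, was at −0.32 (DESeq2 Padj = 0.411). Fscn1, the fascin of many motile cells, was at −0.39 (Padj = 0.593), with 172, 455 and 238 in IDPN against 315 to 412 in Control. The plastins Pls3 and Lcp1 were at −0.08 and 0.51 (Padj 0.872 and 0.467). Eps8l1 was at −0.09 (Padj = 0.939). The chloride intracellular channel genes Clic1, Clic4 and Clic6 were at 0.29, 0.18 and 0.63 (Padj 0.516, 0.671 and 0.250). No paralog of a member passed the test, and Xirp1, Fscn3 and Eps8l3 were too low to be tested.

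**Figure D5:**
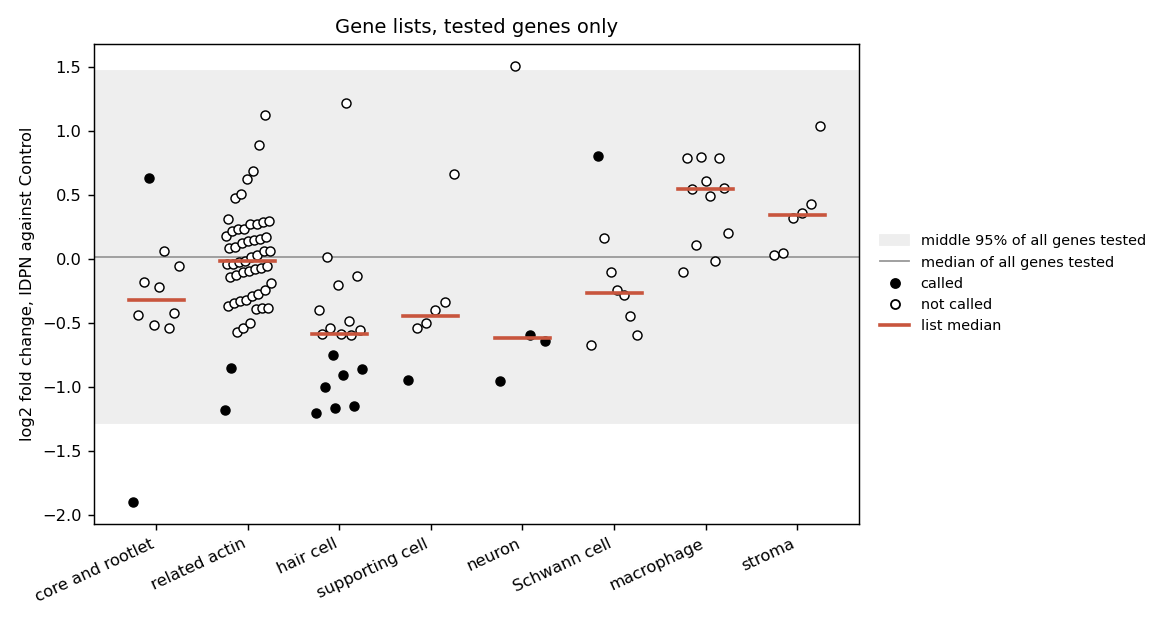
DESeq2 log2 fold change, IDPN against Control (vertical axis), of each tested gene of the stereocilia core and rootlet set, the related actin genes and 6 marker lists; filled points were called, red bars are list medians, the grey band holds the middle 95% of all genes tested and the grey line is their median. The stereocilia set has a median of −0.32 with Xirp2 below the band at −1.90, the related actin genes centre on −0.01, and the HC markers on −0.58.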

How the data were processed

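Bulk RNA-seq was performed on 3 Control and 3 IDPN libraries by a SMART-seq2 protocol (6 to 11 ng of total RNA, oligo-dT priming, 8 and 12 cycles of amplification, no molecular identifiers, no strand marking). The labels give 1 batch. Per the submitters' processing notes, STAR 2.5.3a and RSEM 2.3.0 were used with GRCm38, and the authors named GENCODE M15. The deposited values are estimated counts (expected counts) from RSEM, without normalization, as whole numbers. RSEM divides reads shared between similar genes, so paralogs are less certain. Totals were 40474847 to 43566332 per library. Each group had 3 animals, and the relative weight of animal number and depth in the precision was not tested.

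Counts of all 52636 genes were fitted with the DESeq2 1.42.0 Wald test (R 4.3.3, median-of-ratios size factors, no covariate) and adjusted by Benjamini-Hochberg, with calls at Padj under 0.05 and fold change above 1.5. Intervals are the estimate ± 1.96 SE. Alternatives were edgeR 4.0.16 (quasi-likelihood, TMM, filterByExpr), TMM or total-count size factors, a filter of 10 counts in 3 libraries, no independent filtering, a test against 1.5-fold, and leaving out each library. Ratios within libraries used count + 1 and a two-sided exact permutation test (scipy 1.17.1). Positions and lengths came from GENCODE M21, a later release on the same build, and upstream windows from RefSeq. Pjvk is listed in the table as Dfnb59. The DESeq2 and edgeR fits were tested on simulated counts in which 200 genes were changed 4-fold. DESeq2 made 221 calls, of which 30 were false (13.6%), and edgeR made 195, of which 6 were false (3.08%). With no gene changed, DESeq2 made 9 calls and edgeR 1. The other steps were not tested in this way.

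The members, the gene lists and the rule for naming genes were chosen with earlier results of these data known. The rule named all members, called genes of the related list, paralogs with a mean of at least 10, and the 3 nearest profiles of each called member, without Gm and Rik genes. Further genes are named where the text describes a marker list. Schwann cell, stroma, endothelium and dark cell markers were computed too. Of 8 Schwann cell markers 1 was called higher (Sox10), while 6 were below 0 and the median log2 fold change was −0.26. At an unadjusted p under 0.05, DESeq2 gave 2 lower and 1 higher of them, and edgeR 0 and 1. Of 6 stroma markers 0 were called by DESeq2 or edgeR (1 higher at an unadjusted p under 0.05 with either). Of 6 endothelium markers 1 was called lower (Kdr), and 1 was lower and 2 higher at an unadjusted p under 0.05 with either. Of 6 dark and transitional cell markers 0 were called by DESeq2 or edgeR (2 and 1 lower at an unadjusted p under 0.05). The DESeq2 background was 3.42% lower and 2.32% higher. With total-count scaling, DESeq2 called 1 of 6 stroma markers higher (Col1a2), 0 of 6 endothelium markers lower and 1 higher (Tie1), 1 of 8 Schwann cell markers higher and 0 of 6 dark and transitional cell markers.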

Additional observations from a re-analysis of the deposited data

How the results depend on the processing

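Xirp2 was called lower in all 12 alternative fits, and the 8 members not called by DESeq2 were called in none. Without IDPN 2, Fscn2 (−0.56, DESeq2 Padj = 0.0217) and Pls1 (−0.54, Padj = 0.0203) missed only the fold threshold. So did Pls1 without Control 3 (−0.47, DESeq2 Padj = 0.0490). With other libraries left out, the Padj of Fscn2 and Pls1 reached 0.344 and 0.385. The count of members called higher (1, Grxcr2) was 0 against a fold change of 1.5 (log2 fold change 0.63, DESeq2 Padj = 1.0) and 0 to 1 when 1 library was left out, where Grxcr2 ran from 0.49 to 0.73 and was lost without Control 1 or IDPN 2. Total-count scaling shifted the median of all genes by 0.25 and turned the signs of Espn (0.034), Eps8 (0.19) and Triobp (0.033), none of them called. Relative to that shift, all 3 lie below the median of all genes. With 1 library left out, signs turned for Espn (−0.48 to 0.11), Eps8 (−0.18 to 0.024) and Eps8l2 (−0.040 to 0.17).

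Related actin genes called lower (2) were 0 with edgeR, total-count scaling and the test against 1.5-fold, and 0 to 5 with 1 library left out. They were 1 without Control 1 (Pjvk), Control 2 (Diaph2) or IDPN 1 (Diaph2), 0 without IDPN 3, and 5 without IDPN 2 (Fscn1, Twf1, Gsn, Pjvk and Actn4). Those called higher (0) were 2 with total-count scaling (Tmsb10 and Msn) and 0 to 1 with 1 library left out (Msn without Control 1, Tmsb10 without IDPN 1). These genes were named after their values were seen.

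For ratios to the other members, signs turned with HC markers as reference for Fscn2 (0.10), Pls1 (0.13), Grxcr1 (0.11) and Clic5 (0.045), and with the median of the members for Grxcr1 (0.051). With 1 library left out the ranges were −0.074 to 0.55 for Espn, −0.19 to 0.054 for Pls1, −0.47 to 0.16 for Grxcr1 and −0.35 to 0.010 for Clic5. All of these groups overlapped. The causes were not tested.

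No paired analysis was possible because the labels carry no replicate numbers and each animal gave 1 library. Animal numbers here follow the order of deposition.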
